A study of Mus musculus with 8 samples.

Results

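A block of 3 Mb on mouse chromosome 9 and another of 3 Mb on chromosome 10 were examined, in which a truncated form of the RNA demethylase ALKBH5 had more eCLIP peaks than the full-length protein. The chromosome 9 block runs from 20000001 to 23000000 and the chromosome 10 block from 126000001 to 129000000 (GRCm39). The members were all deposited peaks whose summit lies in a block, 367 peaks on chromosome 9 and 377 on chromosome 10, which makes 744 of the 72953 peaks in the 4 peak lists. The blocks were chosen by the numbers of peaks of the 2 genotypes in these same lists. Differences in peak number between genotypes are therefore descriptions here, without a test.

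The study used E14TG2a, an established line of mouse embryonic stem cells, kept pluripotent with LIF and inhibitors of MEK and GSK3. Wild-type cells, which make the full-length protein (FL), were set against cells of the genotype Alkbh5 del-cIDR, whose own ALKBH5 has lost its disordered C-terminal region. Whether the edited line is 1 clone, and whether replicates were separate cultures, is not stated in the labels. Of the 8 samples, the 4 immunoprecipitates were used, 2 replicates for each genotype. RNA came from nuclei of cells crosslinked once with UV light.

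ALKBH5 is an enzyme that removes the methyl group of N6-methyladenosine, the most common internal mark of messenger RNA. It works mainly in the nucleus, where newly made RNA is spliced and readied for export. Intrinsically disordered regions are protein segments without a fixed fold, and in many RNA-binding proteins they add weak contacts with RNA or with other proteins. In eCLIP the RNA fragments crosslinked to a protein are immunoprecipitated and sequenced, so a peak marks a place in the genome whose RNA was recovered with the protein. The series title asks whether such regions restrain the targeting of demethylases. None of the peaks carried a strand, and no gene could be set beside them, because the gene table used for this work is on GRCm38.p6 and positions of the 2 builds were not mixed.

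The lists held 16636 to 19892 peaks each, and the FL lists were both the shortest and the longest. Sequencing depth is unknown, and a longer list can come from more reads. Numbers of peaks, regions and windows therefore count what the authors' peak caller listed. No measure of RNA abundance was used here, so more RNA and more binding cannot be told apart.

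Both blocks held a little over 2 del-cIDR peaks for each FL peak. On chromosome 9 the FL libraries had 53 and 61 peaks and the del-cIDR libraries 124 and 129. On chromosome 10 the FL libraries had 69 and 49 peaks and the del-cIDR libraries 121 and 138. The genotypes did not overlap in either block. The means on chromosome 9 were 57.0 ± 5.66 and 126.5 ± 3.54 peaks (SD, n = 2 per genotype), a ratio of 2.22. Those on chromosome 10 were 59.0 ± 14.1 and 129.5 ± 12.02 peaks (SD, n = 2 per genotype), a ratio of 2.19. Per 10000 peaks of the library the ratios were 2.20 and 2.21, which differed little from the ratios of peak numbers. Part of the excess lay in peaks close to each other. When peaks of a library within 5 kb were joined, FL numbers became 35 and 32 on chromosome 9 and 41 and 33 on chromosome 10, against 54 and 59 and 55 and 61 for del-cIDR. The ratios were then 1.69 and 1.57, and per 10000 joined peaks of the library they were 1.31 and 1.22. Over the whole genome the joined lists held 10776 and 8847 FL and 12365 and 12766 del-cIDR peaks. The scaled ratios therefore also carry this difference between the lists.

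Within the chromosome 9 block the peaks of both genotypes sat mostly in the 1.5 Mb between 20500001 and 22000000, and the ratio changed from window to window. The fullest del-cIDR window of 250 kb, from 20750001, held 29 and 29 del-cIDR peaks against 9 and 11 FL peaks. The window from 21250001 held 26 and 23 against 6 and 4. The window from 21500001 was nearly even, with 26 and 29 del-cIDR and 21 and 24 FL peaks. It was the window in which FL peaks were most numerous, and it lay 0.75 Mb further along than the fullest del-cIDR window. From 21000001 the del-cIDR replicates differed, with 7 and 16 peaks against 5 and 2 for FL. The window from 20500001 had 9 and 9 against 1 and 2, and the window from 22250001 had 9 and 7 against 1 and 1. Smaller differences were seen from 21750001, with 11 and 9 against 4 and 6, and from 22000001, with 5 and 6 against 4 and 4. The outer windows were almost empty in both genotypes. From 20250001 there were 1 and 0 del-cIDR and 1 and 4 FL peaks, from 22500001 1 and 1 against 1 and 2, and from 22750001 a single FL peak.

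On chromosome 10 the del-cIDR peaks formed 2 crests with a trough between them. The FL peaks had another profile. FL replicate 1 was highest from 127250001, with 14 peaks, and FL replicate 2 from 127750001, with 13. The first crest, from 127000001, held 23 and 31 del-cIDR peaks against 9 and 3 FL peaks. The second, from 128000001, held 25 and 23 against 9 and 8. In the trough the genotypes overlapped. From 127250001 the del-cIDR libraries had 11 and 13 peaks and the FL libraries 14 and 6, and from 127500001 they had 4 and 7 against 5 and 4. From 126750001 there were 13 and 11 del-cIDR against 7 and 5 FL peaks. The windows beside the second crest held 17 and 23 against 8 and 13 from 127750001, and 13 and 18 against 10 and 4 from 128250001. From 128500001 the numbers were 11 and 9 against 6 and 4. The first 3 windows and the last one held at most 2 peaks per library.

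**Figure D1:**
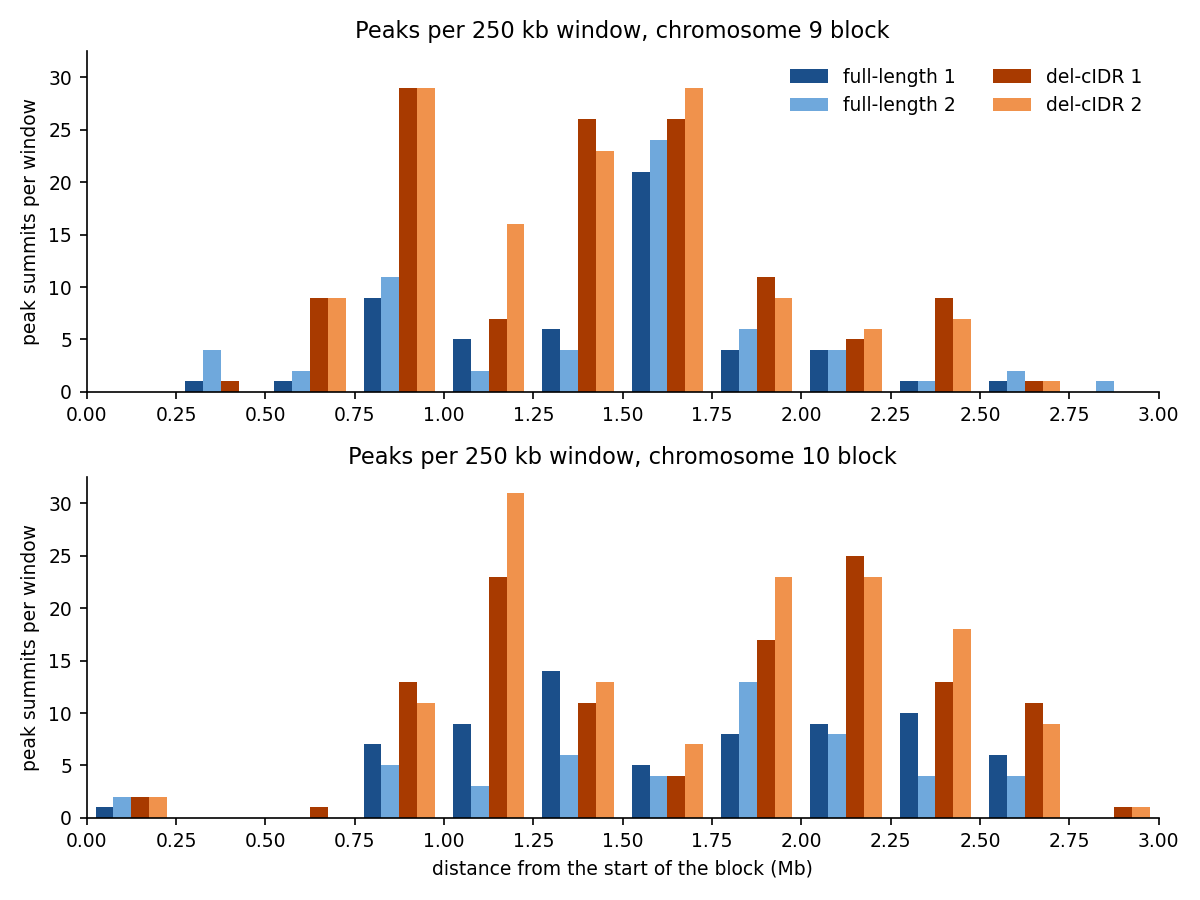
Peak summits per 250 kb window (vertical axis, number of peaks) by distance from the start of each block (horizontal axis, Mb), with 1 bar per library. Del-cIDR bars reach 29 on chromosome 9 and 31 on chromosome 10, while FL bars reach 24 and 14, and the ends of both blocks are nearly empty.

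Both del-cIDR libraries exceeded both FL libraries in 8 of the 11 chromosome 9 windows that held a summit and in 7 of the 11 on chromosome 10. The reverse was seen in none of these windows. Among the 7, the window from 128750001 counted with only 1 peak in each del-cIDR library and no FL peak. Over the genome, 30.9% of the 7291 windows with a summit had both del-cIDR libraries above, and 19.2% had both FL libraries above. Since the blocks were chosen on this contrast, nothing is read from the counts. Joining peaks within 5 kb left both del-cIDR libraries above in 4 of 11 and 5 of 11 windows, or 36.4% and 45.5%, beside 30.02% of all windows with a joined peak. Over the 12 windows of a block, counts of the del-cIDR replicates had a Pearson r of 0.96 on chromosome 9 and 0.95 on chromosome 10, and those of the FL replicates 0.96 and 0.66. Between genotypes r lay between 0.70 and 0.83 on chromosome 9 and between 0.67 and 0.77 on chromosome 10. These correlations describe windows that share the same libraries and the same empty ends.

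The borders of both blocks fell in sparse stretches. The Mb before the chromosome 9 block, from 19000001, leaned the other way, with 19 and 12 FL against 5 and 3 del-cIDR peaks. The first Mb inside held 11 and 17 against 39 and 38. The last Mb inside, from 22000001, held 6 and 8 against 15 and 14, and the Mb after the block 1 peak in each library. Around the chromosome 10 block, the Mb before it held 3 and 4 FL against 5 and 6 del-cIDR peaks, and the first Mb inside 8 and 7 against 16 and 13. The last Mb inside, from 128000001, held 25 and 16 against 50 and 51, and the Mb after it 3 and 3 against 1 and 1. The last summits before 23000000 lay at 22711524 and 22815228 in the FL lists and at 22711443 and 22711298 in the del-cIDR lists, with the next ones at 23662506 to 23662595.

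Merging peaks that overlapped by at least 1 bp gave 202 regions on chromosome 9 and 205 on chromosome 10. Regions with a peak in both del-cIDR libraries and in no FL library numbered 60 on chromosome 9, or 29.7% of the regions (exact 95% binomial interval 23.5 to 36.5%). On chromosome 10 they numbered 64, or 31.2% (24.9 to 38.0%). Over the whole series this class made up 17.7% of 43029 regions. Regions with a peak in both FL libraries and in no del-cIDR library numbered 13 and 11, or 6.44% and 5.37%, against 17.5% over the series. Again these shares follow from how the blocks were chosen. The intervals cover counting of regions only. With peaks under 4-fold enrichment left out, 5 and 8 del-cIDR-only and 3 and 5 FL-only regions were left. The lists then held 9113 and 6944 FL and 5551 and 5723 del-cIDR peaks. No share over all regions was computed at this limit, so nothing is read from these counts.

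Regions with a peak in all 4 libraries numbered 9 on chromosome 9 and 13 on chromosome 10, or 4.46% and 6.34% of the regions, beside 4.70% over the series. Regions that rested on 1 library made up 45.5% on chromosome 9 and 46.3% on chromosome 10, beside 52.8% over the series. On chromosome 9, 31 regions were seen in del-cIDR replicate 1 alone and 38 in replicate 2 alone, and 12 and 11 in a single FL library. On chromosome 10, 26 and 38 regions were seen in a single del-cIDR library, and 24 and 7 in a single FL library. Of the regions with any FL peak, both FL libraries held 39.7% on chromosome 9 and 40.3% on chromosome 10, beside 44.6% over the series.

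**Figure D2:**
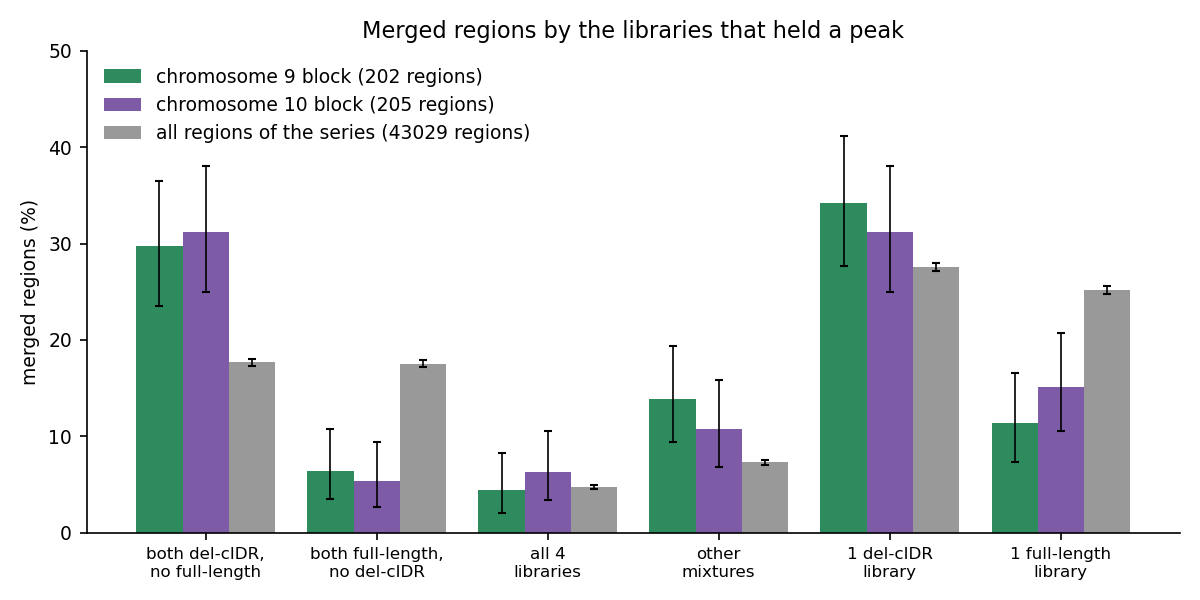
Share of merged regions (vertical axis, percent) in 6 classes by the libraries that held a peak, for each block and for the whole series, with exact 95% binomial intervals over regions as bars. The class of both del-cIDR libraries and no FL library stands at 29.7% and 31.2% in the blocks and 17.7% in the series, and the class of all 4 libraries is near 5% in each.

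Fold enrichment, as deposited by the authors, compares a peak with the background estimated by their peak caller, and is used here to describe peaks of the same list. The del-cIDR-only regions named on chromosome 9 were moderately enriched. The leading one by mean rank of −log10 q lay from 20809195 to 20809859. It ranked 1342 and 1282 in the del-cIDR lists, at 5.16-fold and 5.93-fold enrichment. Its summits in the 2 replicates were at 20809609 and 20809587. The following pair was close together, from 21742933 to 21743429 (2.44-fold and 2.93-fold) and from 21749558 to 21750044 (3.38-fold and 4.07-fold). The widest del-cIDR-only region, from 20990280 to 20992617, joined 3 peaks of replicate 1 and 2 of replicate 2 and had 3.94-fold and 3.03-fold at its best peaks. The fifth, from 20847399 to 20847928, had 3.55-fold and 3.57-fold.

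The regions of all 4 libraries on chromosome 9 included the most enriched del-cIDR site of the block. It lay from 22711275 to 22711575, near the sparse end, at the minimum width of the del-cIDR lists. Its enrichment was 55.0-fold and 49.0-fold in the del-cIDR lists, at ranks 518 and 501, and 5.30-fold and 8.92-fold in the FL lists, at ranks 13017 and 5539. The region with the best mean rank over the 4 lists, from 20936976 to 20937352, was even, with 3.30-fold and 2.66-fold in FL and 2.69-fold and 3.00-fold in del-cIDR lists. Another, from 21650818 to 21651511, had 3.63-fold and 3.69-fold against 3.11-fold and 2.80-fold.

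The FL-only regions of chromosome 9 included the widest region of the block, from 20344323 to 20349889, in a sparse window with 5 FL peaks and 1 del-cIDR peak. FL replicate 1 had a single peak of 5535 bp there, with 10.9-fold enrichment, and replicate 2 had 4 peaks, the best of 2819 bp with 8.36-fold. The others named were narrow. One lay from 21658542 to 21658863 (4.61-fold and 3.94-fold) and one from 22287185 to 22287690 (4.21-fold and 2.73-fold).

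On chromosome 10 the 4 leading del-cIDR-only regions lay close together, beside the second crest. They spanned 128384314 to 128384833 (2.63-fold and 3.32-fold, ranks 1763 and 1312), 128326775 to 128327938 (4.64-fold and 4.97-fold), 128400850 to 128401603 (2.96-fold and 2.83-fold) and 128460151 to 128460455 (4.73-fold and 4.99-fold). Their summits agreed closely between replicates, as at 128384682 and 128384683 in the first and at 128327073 and 128327074 in the second. The fifth lay apart, from 126899562 to 126900657, and had the same summit, 126899755, in both lists, at 3.51-fold and 3.84-fold enrichment. The widest del-cIDR-only region ran from 127355253 to 127356995 and was 1 peak of 1656 bp in replicate 2 and 3 peaks in replicate 1.

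The regions of all 4 libraries on chromosome 10 were led by a short, isolated site, from 126056147 to 126056447. Its enrichment was 49.5-fold and 78.5-fold in the del-cIDR lists, at ranks 295 and 272, and 7.42-fold and 21.4-fold in the FL lists, at ranks 5172 and 1007. The next region, from 127577430 to 127581308, differed in shape between genotypes. An FL peak covered 3879 bp in replicate 1 and 3404 bp in replicate 2, with 11.1-fold and 7.33-fold enrichment. The del-cIDR peaks inside it had the minimum width of their lists, with 6.48-fold and 11.6-fold. The last of the 3, from 127963024 to 127965058, held in each list a best peak of 2.11-fold to 3.75-fold.

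The highest ranked FL peak of either block was an FL-only site on chromosome 10, from 128277752 to 128278104. It ranked 191 and 146 in the FL lists, with 7.47-fold and 5.02-fold enrichment and a −log10 q of 572 and 396. The next FL-only regions were at 128642257 to 128643754 (7.89-fold and 5.40-fold) and 127634522 to 127634844 (12.8-fold and 8.20-fold). The widest FL-only region, from 127875753 to 127881155, was 1 peak of 5403 bp in replicate 1 and 4 peaks in replicate 2, with 2.72-fold and 2.67-fold at the best peaks.

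Many peaks of both genotypes lay in the same neighbourhoods, which does not mean that they overlapped. When the peaks of the 4 lists were chained wherever they lay within 5 kb of each other, 77 chains resulted on chromosome 9 and 72 on chromosome 10. The widest chain covered 45837 bp on chromosome 9 and 25042 bp on chromosome 10. Of all chains, 30 and 33 held peaks of both genotypes. Those mixed chains contained 69.2% and 66.4% of the del-cIDR peaks and 86.8% and 82.2% of the FL peaks. Chains with del-cIDR peaks alone numbered 36 and 30, and chains with FL peaks alone 11 and 9. Over the series, 24.5% of 22462 chains were mixed, against 39.0% and 45.8% in the blocks, and they contained 46.8% of the del-cIDR and 47.7% of the FL peaks. Chains with del-cIDR peaks alone made up 46.8% and 41.7% in the blocks, near 44.2% over the series, and chains with FL peaks alone 14.3% and 12.5% against 31.3%. These shares move with the number of peaks per Mb and were not tested. Among the mixed chains, del-cIDR peaks were more numerous in 16 on chromosome 9 and 19 on chromosome 10, FL peaks in 9 and 8, and the numbers were equal in 5 and 6. The blocks were chosen on this contrast and no share over the series was computed, so nothing is read from these counts.

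Chains are named here by their number of del-cIDR or FL peaks, so an excess in them follows in part from that choice. On chromosome 9 the chain from 21722848 to 21757090 held 18 and 17 del-cIDR against 4 and 3 FL peaks, and the chain from 20818097 to 20863933 held 15 and 15 against 1 and 5. Together with the chain from 21299836 to 21316671, which held 10 and 6 against 1 and 2, they are the 3 chains of that block with the most del-cIDR peaks. The opposite was seen from 21498293 to 21507239, where the FL libraries had 5 and 9 peaks and the del-cIDR libraries 1 and 2. On chromosome 10 the chain with the most peaks of both genotypes was the same one, from 127944886 to 127969927, with 11 and 16 del-cIDR and 7 and 9 FL peaks. The chain from 127018243 to 127036839 held 8 and 10 against 3 and 2, and the chain from 127110524 to 127123501 held 7 and 10 against 2 and 0. Chains without any FL peak included 128113667 to 128121357, with 6 and 5 del-cIDR peaks, and 128324014 to 128329572, with 3 and 7.

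Median widths of del-cIDR peaks were above the outside value in both blocks, and those of FL peaks on chromosome 9 alone. Outside both blocks the medians were 379 and 291 bp (FL) and 324 and 330.0 bp (del-cIDR). On chromosome 9 they were 414 and 327 bp in FL and 381.5 and 415 bp in del-cIDR libraries, higher than outside in 4 of 4. The mean log2 ratio of block to outside was 0.22 ± 0.09 (SD, n = 4 libraries). A two-sided exact sign-flip permutation test gave p = 0.125, the smallest that 4 libraries allow, and 0.25 after Benjamini-Hochberg adjustment over 6 tests. Among peaks of at least 4-fold enrichment, 9 to 18 per library in the block, the mean fell to 0.07 (exact permutation p = 0.625), with 3 of 4 libraries above 0. The log2 ratios were then 0.42 and -0.17 in the FL libraries and only 0.005 and 0.019 in the del-cIDR libraries. On chromosome 10 the medians were 379 and 289 bp in FL and 411 and 411.5 bp in del-cIDR libraries. The mean log2 ratio was 0.16 ± 0.19 (SD, n = 4; exact permutation p = 0.5, adjusted 0.6), made up of 0.00 and -0.01 in the FL and 0.34 and 0.32 in the del-cIDR libraries. At 4-fold enrichment and above it was 0.06 (exact permutation p = 0.375), made up of -0.08 and 0.18 in the FL and 0.002 and 0.16 in the del-cIDR libraries. The design cannot reach 0.05 in either block.

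Wide peaks, of 2 kb or more, were all FL. They numbered 5 and 2 on chromosome 9 and 2 and 1 on chromosome 10, and the widest del-cIDR peaks were 1611 and 1656 bp. The FL peaks of this width made up 9.43% and 3.28% of the FL peaks on chromosome 9 and 2.90% and 2.04% on chromosome 10. Outside the blocks they made up 4.14% and 2.17% in the FL and 0.09% and 0.14% in the del-cIDR lists, so wide del-cIDR peaks were rare outside the blocks too. At the narrow end, peaks at the minimum width of their list made up 7.55% and 9.84% of FL and 12.1% and 10.9% of del-cIDR peaks on chromosome 9. On chromosome 10 they made up 5.80% and 12.2% and 13.2% and 10.1%. Outside the blocks the shares were 12.5% and 17.1% and 28.5% and 26.9%, above the block's share for each library in both blocks.

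**Figure D3:**
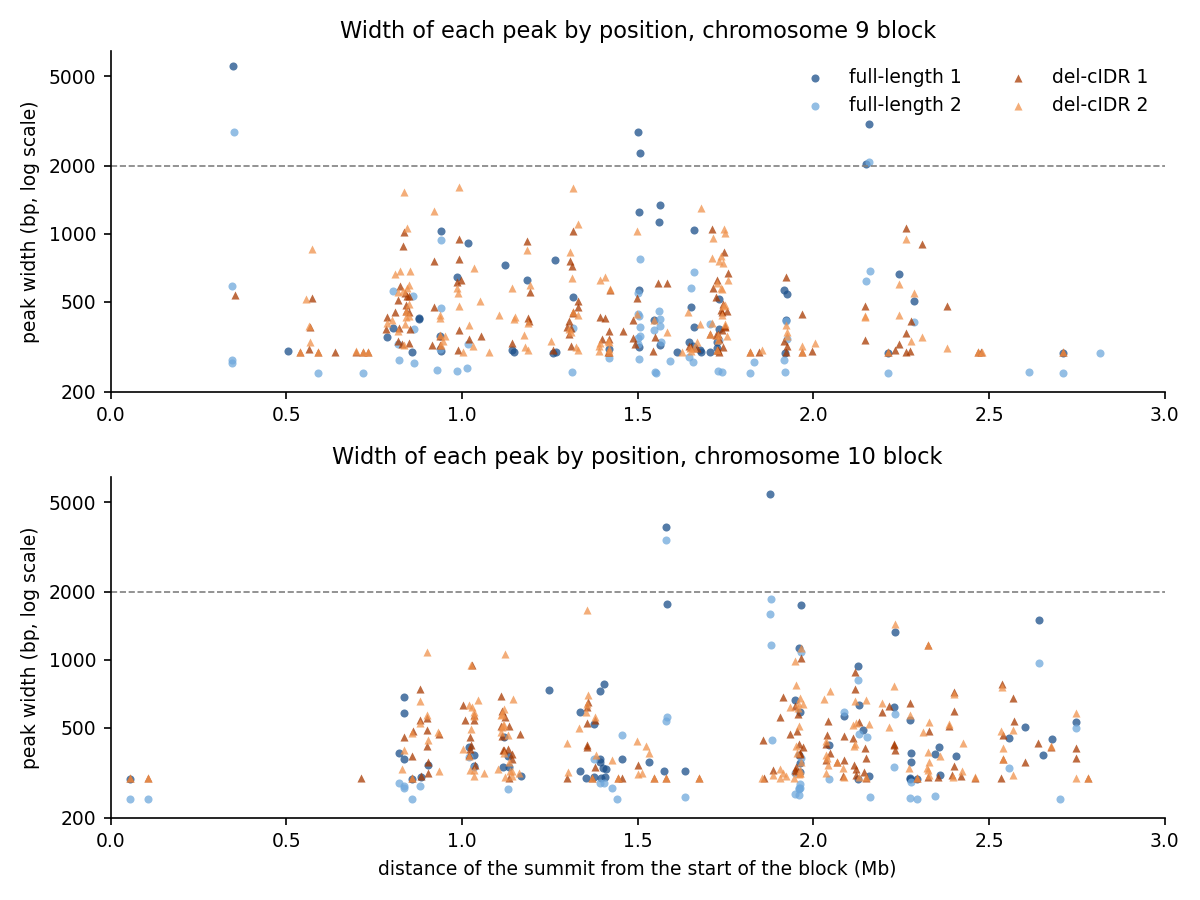
Width of each peak (vertical axis, bp, log scale) by distance of its summit from the start of the block (horizontal axis, Mb), circles for FL and triangles for del-cIDR libraries, with a dashed line at 2 kb. The points above the line are FL peaks, and the widest del-cIDR peaks are 1611 bp on chromosome 9 and 1656 bp on chromosome 10.

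**Figure D4:**
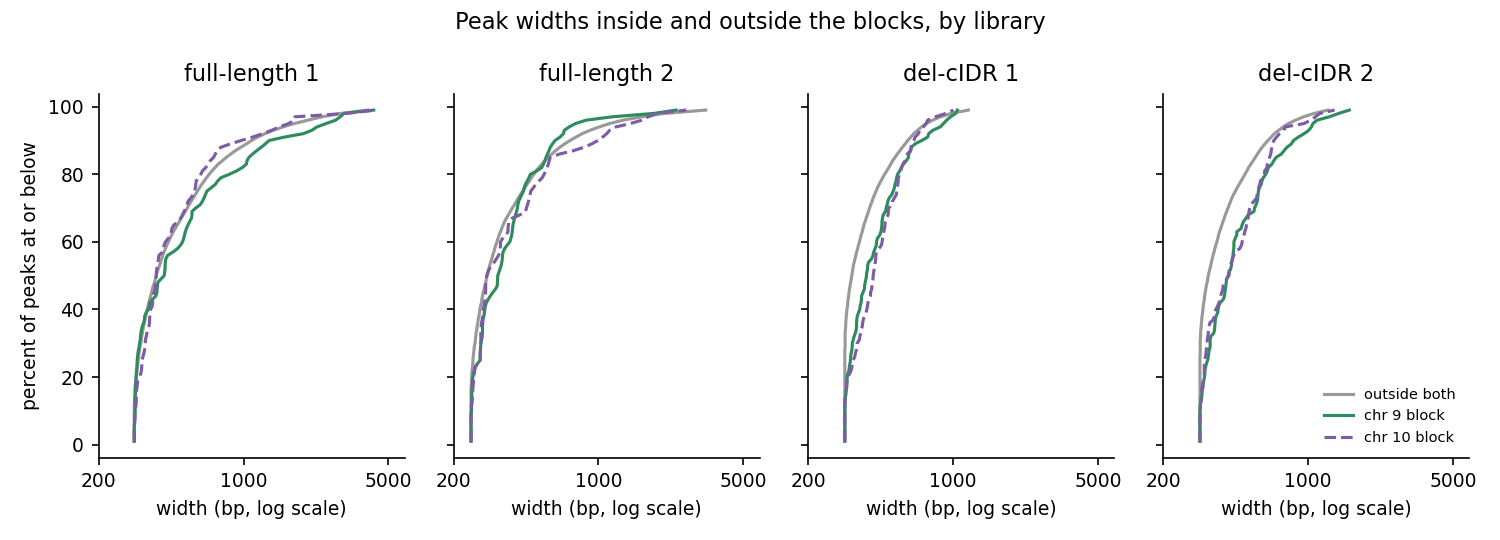
Percent of peaks (vertical axis) at or below a width (horizontal axis, bp, log scale) in each library, for peaks outside both blocks and in each block, drawn from the percentiles 1 to 99. In the del-cIDR libraries both block curves lie to the right of the outside curve around the middle, with medians of 381.5 to 415 bp against 324 and 330.0 bp.

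Median enrichment was lower in both blocks than outside, in every library. For FL peaks of chromosome 9 the median fold enrichment was 2.95 and 2.87, against 3.81 and 3.61 outside, and for del-cIDR peaks it was 2.72 and 2.78, against 3.18 and 3.16. On chromosome 10 it was 2.97 and 2.90 in FL and 2.81 and 2.86 in del-cIDR lists. The mean log2 ratio was -0.28 ± 0.09 on chromosome 9 and -0.25 ± 0.10 on chromosome 10 (SD, n = 4), and the two-sided exact sign-flip permutation test gave p = 0.125 in each (adjusted 0.25). Peaks of high fold enrichment were correspondingly scarce. Peaks of at least 4-fold enrichment made up 17.0% and 19.7% of FL and 12.1% and 13.95% of del-cIDR peaks on chromosome 9, and 21.7% and 18.4% and 14.9% and 15.9% on chromosome 10. Outside the shares were 46.0% and 41.9% in the FL and 31.8% and 30.6% in the del-cIDR lists. By −log10 q, 11.5 to 20.8% of the chromosome 9 peaks and 12.2 to 21.7% of the chromosome 10 peaks ranked in the best 25% of their list. The median −log10 q, however, was not lower throughout. In the del-cIDR lists it was 10.9 and 10.7 on chromosome 9 and 11.4 and 10.4 on chromosome 10, above 10.3 and 9.90 outside. In the FL lists it was 12.11 and 10.2 on chromosome 9 and 10.3 and 11.7 on chromosome 10, against 12.10 and 11.5 outside. The 500 highest ranked peaks of each list included none from chromosome 9 and 1 in each list from chromosome 10.

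Within each del-cIDR list, enrichment was also set out by the class of region. On chromosome 9 the median enrichment of del-cIDR-only peaks was 2.73-fold and 2.80-fold, beside 2.69-fold and 2.80-fold for peaks in regions of all 4 libraries and 2.71-fold and 2.91-fold for peaks seen in 1 del-cIDR library alone. On chromosome 10 these medians were 2.89-fold and 3.05-fold, 2.45-fold and 2.45-fold, and 3.01-fold and 2.66-fold. Both replicates thus had lower medians in regions of all 4 libraries than in del-cIDR-only regions on chromosome 10, a difference that was not tested.

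Peaks inside the blocks were found again in the other replicate with shares on both sides of those elsewhere. On chromosome 9 the share of peaks overlapped by a peak of the other replicate was 54.7% and 67.2% in FL and 68.5% and 62.8% in del-cIDR libraries, against 54.0%, 76.2%, 64.4% and 59.6% outside. The mean difference was -0.23 ± 6.03 percentage points (SD, n = 4; two-sided exact sign-flip permutation p = 1, adjusted 1). On chromosome 10 the shares were 46.4% and 81.6% in FL and 75.2% and 63.0% in del-cIDR libraries, and the mean difference was 3.02 ± 7.76 points (exact permutation p = 0.5, adjusted 0.6). Requiring 50% overlap turned the latter to -1.66 points. By library, the chromosome 9 differences were 0.71 and -9.01 points in FL and 4.20 and 3.18 points in del-cIDR. On chromosome 10 they were -7.63 and 5.41 points in FL and 10.9 and 3.43 points in del-cIDR. The replicates of a genotype share their overlaps, so the 4 values are not independent. Peak numbers, on which the blocks were chosen, also enter the share of peaks overlapped. Nothing is therefore read from these tests.

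Overlap with the other genotype was uneven. On chromosome 9, 52.8% and 41.0% of the FL peaks overlapped a del-cIDR peak of either replicate, against 20.5% and 25.2% outside the blocks. On chromosome 10 these shares were 47.8% and 55.1%. Of the del-cIDR peaks, 22.6% and 23.3% overlapped an FL peak on chromosome 9 and 22.3% and 23.9% on chromosome 10, close to 24.2% and 24.3% outside. Where a peak did not overlap one of the other genotype, the nearest was closer than elsewhere. The median distance from such a del-cIDR peak to an FL peak was 7886 and 7460 bp on chromosome 9 and 5189.5 and 7425 bp on chromosome 10, against 19502 and 18649 bp outside. For FL peaks it was 3705 and 4312.5 bp on chromosome 9 and 3331.5 and 3346.5 bp on chromosome 10, against 21742 and 18079 bp. The numbers of FL and of del-cIDR peaks in the blocks both enter these values. A distance from a del-cIDR peak depends on the FL peaks nearby, and one from an FL peak on the del-cIDR peaks. The part of these numbers was not tested.

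**Figure D5:**
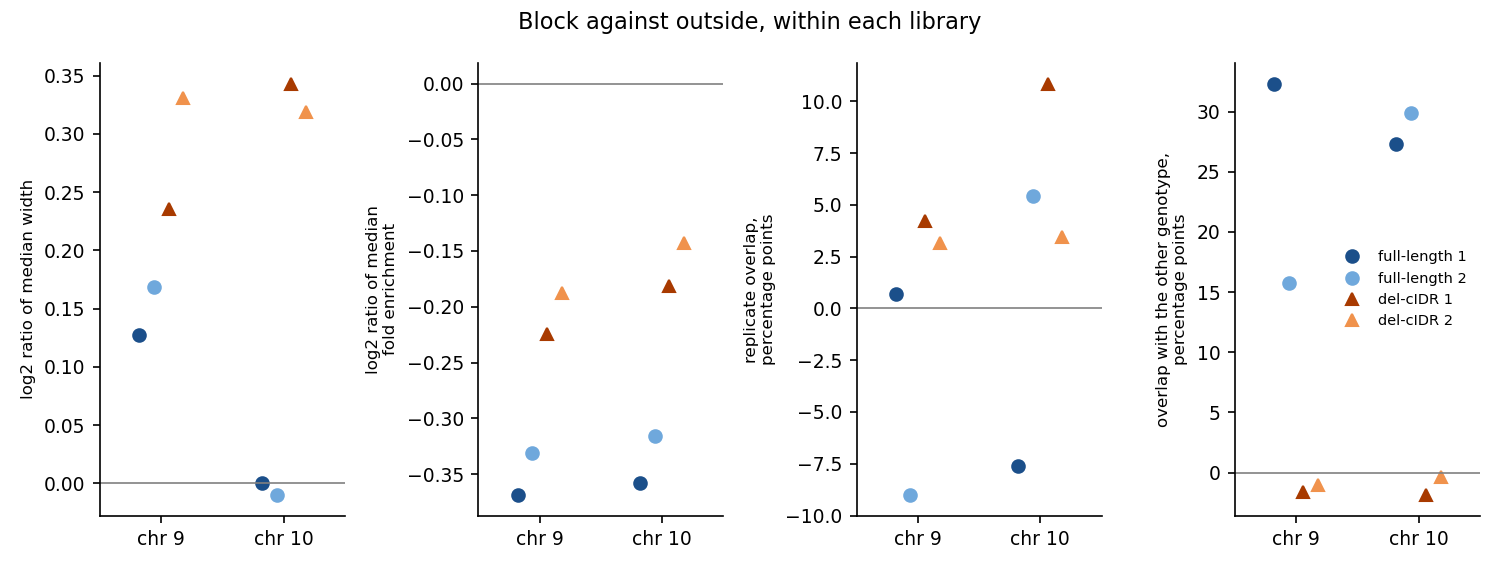
Difference between block and outside within each library for 4 measures (vertical axes: log2 ratio of median width, log2 ratio of median fold enrichment, and percentage points of peaks overlapped by the other replicate and by the other genotype), with 1 point per library and block. Fold enrichment is below 0 in all 8 points, replicate overlap lies on both sides of 0, and overlap with the other genotype is above 0 for the FL libraries and below it for the del-cIDR libraries.

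Distances between the summits of the 2 del-cIDR replicates were taken only in merged regions with a peak of each, a choice that favours short distances. In the del-cIDR-only regions with 1 peak per replicate, 56 on chromosome 9 and 61 on chromosome 10, the median distance between summits was 31.5 and 29.0 bp, and 58.9% and 62.3% of pairs lay within 50 bp. Elsewhere in the genome the median was 33.0 bp and the share 57.3% over 7139 regions. The del-cIDR-only regions of the blocks therefore had summit distances close to those of the other del-cIDR-only regions. They were somewhat wider, with a median of 538 bp on chromosome 9 (quartiles 427.75 and 759.5 bp) and 557.5 bp on chromosome 10 (416.75 and 736 bp), beside 420.0 bp for this class over the series. Inside the blocks they were spread over 8 of the 12 windows on chromosome 9, with 15 regions from 20750001 and 12 from 21500001. On chromosome 10 they lay in 9 windows, with 15 regions from 128000001 and 13 from 127000001. The window from 21500001, which was nearly even by peak numbers, thus also held 12 del-cIDR-only, 6 FL-only and 3 shared regions.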

How the data were processed

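Nuclear RNA bound by ALKBH5 was profiled by eCLIP. The submitters' processing notes name MACS2, STAR, UMI-tools and cutadapt, and the build GRCm39. Versions, settings, the role of each tool and the use of the inputs as a control are not given there. There is 1 peak list per immunoprecipitate, hence peaks were called on single replicates. Inputs were not used here. Lists named wt were taken as FL and lists named KI as del-cIDR, the remaining genotype. Each deposited peak has coordinates, a fold enrichment (a ratio to background) and a −log10 q-value. The deposited summit is another kind of value, an offset within the peak.

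All deposited peaks were used, in Python 3.11.15 with pandas 2.3.3 and SciPy 1.17.1. Peaks were placed by summit, and peaks of the 4 lists were merged at 1 bp overlap. Within each library, median width, median enrichment and replicate overlap in a block were compared with all peaks outside both blocks, by a two-sided exact sign-flip permutation test over 4 libraries. Merging and overlaps were tested on simulated lists. Where replicates are technical, p-values measure technical spread.

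Members, lists and tests were chosen with earlier results of these data known. Named regions are, per block, the best by mean rank of −log10 q (5 del-cIDR-only, 3 of all 4 libraries, 3 FL-only) and the widest of each genotype. Chains of peaks within 5 kb were added after the lists were seen. Gene groups planned for a GRCm39 annotation were not analysed here. Alternatives tried were limits on q and enrichment, lists of equal length, scaling, joining within 5 kb, merging within 100 bp or at 50% overlap, other windows, the same chromosome as reference, each library left out and a replicate block.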

Additional observations from a re-analysis of the deposited data

Results flagged for a closer look

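The share of peaks overlapped by the other genotype moved in opposite ways in the 2 genotypes when blocks were compared with the rest of the genome. On chromosome 9 the block differed from outside by 32.3 and 15.8 percentage points in the FL libraries and by -1.60 and -1.03 points in the del-cIDR libraries, a difference of 25.4 points between the genotype means. On chromosome 10 the changes were 27.3 and 29.9 against -1.87 and -0.37 points, a difference of 29.7 points. The spacing of neighbouring summits of a list did the same on chromosome 10. The median spacing was 13969 and 17910 bp in FL and 3820 and 3536.5 bp in del-cIDR libraries, against 8450 and 7700 bp and 28123 and 23012 bp outside, a difference of 3.76 between the mean log2 ratios. None of these differences was tested, and peak numbers, on which the blocks were chosen, enter all of them.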

How the results depend on the processing

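Of 84 values recomputed under another setting, 72 were counted as the same. Values with a test were counted so on direction alone, whatever their size, because no p-value of this design can fall below 0.05. Values without a test were counted so when they moved by less than the spread, the interval or 1.5 times. Among the 72, the width shift fell from 0.22 to 0.07 on chromosome 9 and from 0.16 to 0.06 on chromosome 10 at 4-fold enrichment. Replicate overlap on chromosome 9 went from -0.23 to -1.997 points at 50% overlap. The ratio of del-cIDR to FL peaks moved with peaks of at least 4-fold enrichment, to 1.57 on chromosome 9 and 1.67 on chromosome 10, and with peaks within 5 kb joined, to 1.69 and 1.57. Chosen after seeing the data, scaling was combined with both. Per 10000 joined peaks the ratios were 1.31 and 1.22, lower than without scaling, since the del-cIDR lists hold more joined peaks than the FL lists. Per 10000 peaks of at least 4-fold enrichment they were 2.15 and 2.41, near the main values, since the del-cIDR lists hold fewer such peaks. Leaving out 1 library gave 2.07 to 2.39 and 1.88 to 2.64. At 4-fold enrichment, del-cIDR-only regions numbered 5 and 8 and FL-only regions 3 and 5, with no share over all regions computed at this limit. Joining within 5 kb lowered the share of chromosome 9 windows with both del-cIDR libraries above to 36.4%, beside 30.02% of all windows. The replicate-overlap difference on chromosome 10 turned to -1.66 points at 50% overlap, and the cause was not tested. In the replicate block, ratios within same-numbered pairs averaged 2.22 on both chromosomes. The numbers did not pair the samples, as deviations over 2267 windows of 1 Mb correlated at -0.01. Read numbers are unknown, so a missing peak does not show missing binding.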
